A study of Mus musculus with 6 samples.

Results

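The whole pituitary gland at postnatal day 7 (P7) was set against the whole adult gland, as 2 of the 6 RNA-seq libraries of a mouse series on long non-coding RNAs (lncRNAs) in pituitary development and cell types. The P7 library came from 8 pooled nontransgenic glands and the adult library from 1 nontransgenic gland, whose age the sample label gives only as adult. Both are labelled as holding all pituitary cells. The other 4 libraries came from fluorescent cells sorted from glands with a Cre driver and a YFP reporter, and those from 5 Tshbcre glands at P7 and 42 Tshbcre glands at 7 weeks are set beside the whole glands below. Each group was 1 library, so no difference had a replicate or a test, and litter, pooling and preparation cannot be told apart from age. Every autosomal gene listed in both whole-gland tables was eligible, 47287 of the 50308 genes listed in both. Of these, 18 had a failed estimate and 15053 reached 1 scaled FPKM in at least 1 of the 2 libraries. FPKM is the number of fragments per kilobase of transcript, relative to the size of the library, and scaled means divided by a factor for each library. These 15053 genes were compared.

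The anterior pituitary holds somatotropes, lactotropes, corticotropes, gonadotropes and thyrotropes, which secrete growth hormone, prolactin, corticotropin, the gonadotropins and thyrotropin. In mice the gland expands after birth, by division of both SOX2-positive progenitors and hormone cells, and lactotropes become abundant late, under the control of dopamine, oestrogen and the transcription factor POU1F1. The posterior lobe, vessels, connective tissue and resident immune cells are part of a whole-gland sample. In bulk RNA, fewer cells of a type and less RNA per cell cannot be told apart.

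Depth at P7 was 1.21 times that of the adult gland, and 13836 and 13907 genes stood at 1 scaled FPKM or more at P7 and in the adult gland. Hormone genes marked both libraries as pituitary, with Pomc, the corticotropin precursor, at 1428 at P7 and 1555 in the adult gland. Most markers of likely neighbouring tissue were low at both ages. In both libraries 7 of 10 cartilage and bone genes and 8 of 10 skeletal muscle genes stayed under 1 scaled FPKM. The cartilage gene Col2a1 stood at 2.50 at P7 and 0.278 in the adult gland, and the muscle gene Acta1 at 1.86 and 1.02. Col9a1 and Ckm, near 1 at P7, stood at 0.101 and 0.284 in the adult gland. Hapln1, of cartilage, went the other way, at 0.366 and 2.12. Col2a1 and Col9a1 are also among the collagen genes below, and the part of neighbouring tissue in the matrix differences was not tested. The X-linked lncRNA Xist stood at 17.0 scaled FPKM in the P7 pool and 0.0599 in the adult gland, while the Y-linked gene Eif2s3y stood at 5.32 and 10.3. The P7 pool therefore carried female and male markers and the adult gland male markers, and sex cannot be told apart from age. Gh, the growth hormone gene, is listed only in the P7 table, at 6031, and was not compared. Unnamed assembled transcripts were longer in the adult table, with 52.2% at P7 and 65.8% in the adult gland at 200 nucleotides or more. Where a locus held 1 named gene, these transcripts were added to it as a second value, and it is said where they end a call, turn a direction or move a fold by more than 1.5 times for a gene named with its values.

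Differences are P7 minus adult on the log2(scaled FPKM + 1) scale, and a fold is 2 to that power, so folds of low genes are understated. At 4-fold or more, 503 genes were higher at P7 (3.34%) and 496 were lower (3.3%), and the median over all genes was 0.01. Most of these calls rested on a value of 0: 435 of the 503 were listed at 0 in the adult gland and 410 of the 496 at P7. Among the 13653 genes above 0 in both libraries, 68 were at least 4-fold higher (0.498%) and 86 lower (0.63%), and 37 and 54 of them stayed past 4-fold with assembled transcripts added. Protein-coding genes gave 264 higher (2.3%) and 217 lower (1.89%) of 11472. At 2-fold, 1507 genes were higher (10%) and 1429 lower (9.49%). The deposited bounds of FPKM, which cover read counting and assignment within a library only, lay apart in each direction for 33.2% of genes.

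**Figure D1:**
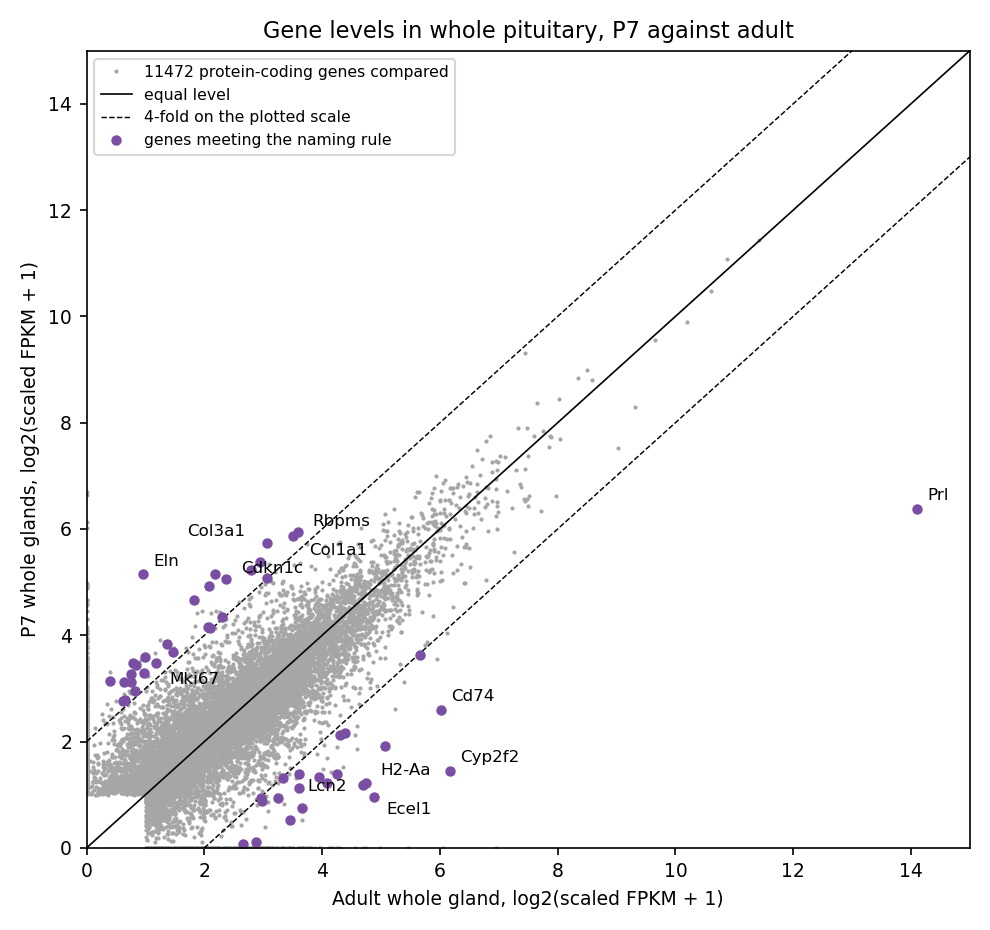
Levels of 11472 protein-coding genes in the P7 whole-gland library (vertical axis) and the adult whole-gland library (horizontal axis), both as log2(scaled FPKM + 1), with 1 point per gene. Dashed lines mark 4-fold differences, and purple points are the 28 higher and 23 lower genes that were above 0 in both libraries, at 5 or more in one, with separate bounds and still 4-fold apart with assembled transcripts added. Prl lies farthest from the line of equal level.

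The naming criteria given with the scatter plot left 28 protein-coding genes higher and 23 lower at P7. The 12 largest higher differences were those of Eln, H2bc6, Mfap2, Acta2, Fbn2, Col26a1, Col3a1, Cdkn1c, H1f5, H1f1, H2bu2 and Cartpt. Of these, 6 belong to the extracellular matrix or to contractile cells and 4 encode histones. The 12 largest lower differences were those of Prl, Cyp2f2, Ecel1, H2-Aa, Lcn2, Cd74, Gm52666, Myoc, Chrnb3, H2-Ab1, H2-Eb1 and Ceacam10. Of these, 4 belong to the MHC class II antigen presentation pathway.

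Prolactin separated the 2 ages more than any other protein-coding gene. Prl (chromosome 13, 27241553 to 27249187, mm39) stood at 82.5 scaled FPKM at P7, with bounds of 78.7 and 86.4, and at 17579 in the adult gland, with bounds of 17032 and 18125. The adult value was 213 times the P7 value, and the difference was -7.72. Among protein-coding genes in the comparison Prl ranked 99 at P7 and 1 in the adult gland. The bounds did not meet, and the next largest difference of a protein-coding gene above 0 in both libraries was 26.3-fold, for Cyp2f2. The promoter is shown because POU1F1 binding to it is a textbook case of pituitary gene control. The window runs from 250 bases before to 50 bases after the annotated start, taken from RefSeq on GRCm38.p6, at chr13:27057320-27057619 on the plus strand. Capitals mark the POU1F1 core searched on both strands, TATNCAT, which occurred at -148 and -47, counting bases from the annotated start, which is 0.
Prl promoter: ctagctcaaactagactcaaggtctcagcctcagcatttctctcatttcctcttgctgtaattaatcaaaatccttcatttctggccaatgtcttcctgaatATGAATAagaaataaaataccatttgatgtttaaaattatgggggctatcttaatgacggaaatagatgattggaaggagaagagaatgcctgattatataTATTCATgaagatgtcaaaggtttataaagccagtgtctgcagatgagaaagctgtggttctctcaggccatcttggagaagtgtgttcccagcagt
A match was present in 8.84% of 32851 promoters of this length and 2 or more matches in 1.5%. Among 8 promoters of the 5 lactotrope genes found in the table, 1 held the motif.

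The other lactotrope genes were also low at P7, with 1 exception. Of 8 genes compared, 3 were at least 4-fold lower, 7 at least 2-fold lower and 0 at least 4-fold higher, and the median difference was -1.80. With assembled transcripts the median was the same, but Gal and Angpt1 came under 2-fold, at -0.65 and -0.59. Agtr1a, the angiotensin receptor of lactotropes, stood at 1.17 at P7 and 11.1 in the adult gland, 5.60-fold lower at P7. Edil3, a secreted integrin ligand, stood at 0.917 at P7 and 8.47 in the adult gland. Drd2, the dopamine receptor through which prolactin release is inhibited, stood at 5.52 at P7 and 23.8 in the adult gland, and Esr1, the oestrogen receptor, at 5.88 and 20.8. Both lay between 2-fold and 4-fold lower. Prlr, the prolactin receptor, was the 1 of the 8 with a higher value at P7, at 11.1 at P7 and 5.86 in the adult gland.

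The other anterior lobe hormone genes that could be compared, which leaves out Gh, differed by less than 4-fold. Pomc differed by -0.12. Cga, the subunit shared by gonadotropins and thyrotropin, stood at 749 at P7 and 805 in the adult gland, a difference of -0.10, and at 749 and 1289 with assembled transcripts, 1.72-fold lower. Lhb, the luteinizing hormone subunit, stood at 312 at P7 and 637 in the adult gland, and Fshb, the follicle-stimulating hormone subunit, at 85.1 and 180.3, each about 2-fold lower at P7. Tshb, the thyrotropin subunit, had a higher value at P7, at 61.0 against 33.1 in the adult gland, a difference of 0.86. None of these 5 hormone genes reached 4-fold.

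By list, 1 of 9 gonadotrope genes was at least 4-fold higher and 0 lower, with a median of -0.10, or -0.78 with assembled transcripts added. The gene called was Foxl2, a transcription factor of the glycoprotein hormone lineages, at 6.24 at P7 and listed at 0 in the adult gland, and at 9.23 at P7 and 4.63 in the adult gland with assembled transcripts. Spp1, which encodes osteopontin, stood at 7.74 at P7 and 27.2 in the adult gland. In the thyrotrope list 0 of 8 genes were 4-fold apart, with a median of 0.17, or -0.06 with assembled transcripts, and Dio2, the deiodinase that activates thyroxine, stood at 9.59 at P7 and 3.87 in the adult gland. In the corticotrope list 1 of 5 genes was higher, with a median of -0.02. That gene, Neurod1, stood at 5.11 at P7 and 0.333 in the adult gland, and at 7.42 and 1.24 with assembled transcripts, which brought it under 4-fold. The 3 melanotrope genes had a median of -0.38 and none was 4-fold apart.

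Somatotrope genes other than Gh leaned lower at P7. Of 6 compared, 2 were at least 4-fold lower and all 6 were negative, with a median of -0.51; with FPKM as deposited both calls came just under 4-fold, at -1.91 for Pappa2 and -1.96 for Wnt10a. Pappa2, a protease that cleaves IGF-binding proteins, stood at 3.36 at P7 and 18.7 in the adult gland. Wnt10a, a WNT ligand, stood at 0.852 at P7 and 6.87 in the adult gland. Ghrhr, the receptor for growth hormone-releasing hormone, was closer, at 19.3 at P7 and 27.2 in the adult gland. Among 10 receptors for hypothalamic hormones 0 were 4-fold apart and the median was -0.26.

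Pituitary transcription factors were largely level between the ages, with a median of -0.02 over 18 genes, 2 higher and 0 lower. Pitx1, a factor of all anterior lobe lineages, stood at 28.1 at P7 and 32.0 in the adult gland, and Pou1f1 at 21.4 and 39.0. Eya1, a transcriptional coactivator of pituitary progenitors, was called higher at 20.5 at P7 against 2.67 in the adult gland, but stood at 20.5 and 16.1 with assembled transcripts added. Neurod1 was the second gene called. Secretory granule genes leaned lower, with none at 4-fold: 13 of 16 were negative and the median was -0.52. With assembled transcripts 1 member passed 4-fold: Pam, an enzyme that amidates peptides, stood at 19.4 at P7 and 92.6 in the adult gland, against 38.8 in the adult gland without them. Chgb, a granin, stood at 79.9 at P7 and 209 in the adult gland, and Pcsk1, a prohormone convertase, at 6.38 and 16.5.

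Genes of progenitor and folliculostellate cells split in both directions. Of 14 compared, 2 were at least 4-fold higher and 2 lower, and the median was 0.39. Cyp2f2, a cytochrome P450, stood at 1.74 at P7 and 71.0 in the adult gland, 26.3-fold lower at P7. Lcn2, an iron-siderophore binding protein, stood at 1.28 at P7 and 24.9 in the adult gland, 11.4-fold lower. Both had low values at P7 and were among the 5 largest lower differences of the naming rule. Rbpms, an RNA-binding protein gene, stood at 60.5 at P7 and 10.98 in the adult gland, 5.14-fold higher, though by its highest transcript alone the log2 difference was 1.58, under 4-fold. Hes1, a target of NOTCH that maintains progenitors, stood at 14.0 at P7 and 1.38 in the adult gland, and at 14.0 and 6.201 with assembled transcripts, under 4-fold. Sox2, the progenitor factor, was at 14.1 at P7 and 6.95 in the adult gland. Sox9 was at 4.605 at P7 and 3.26 in the adult gland. The list therefore did not move as a unit.

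**Figure D2:**
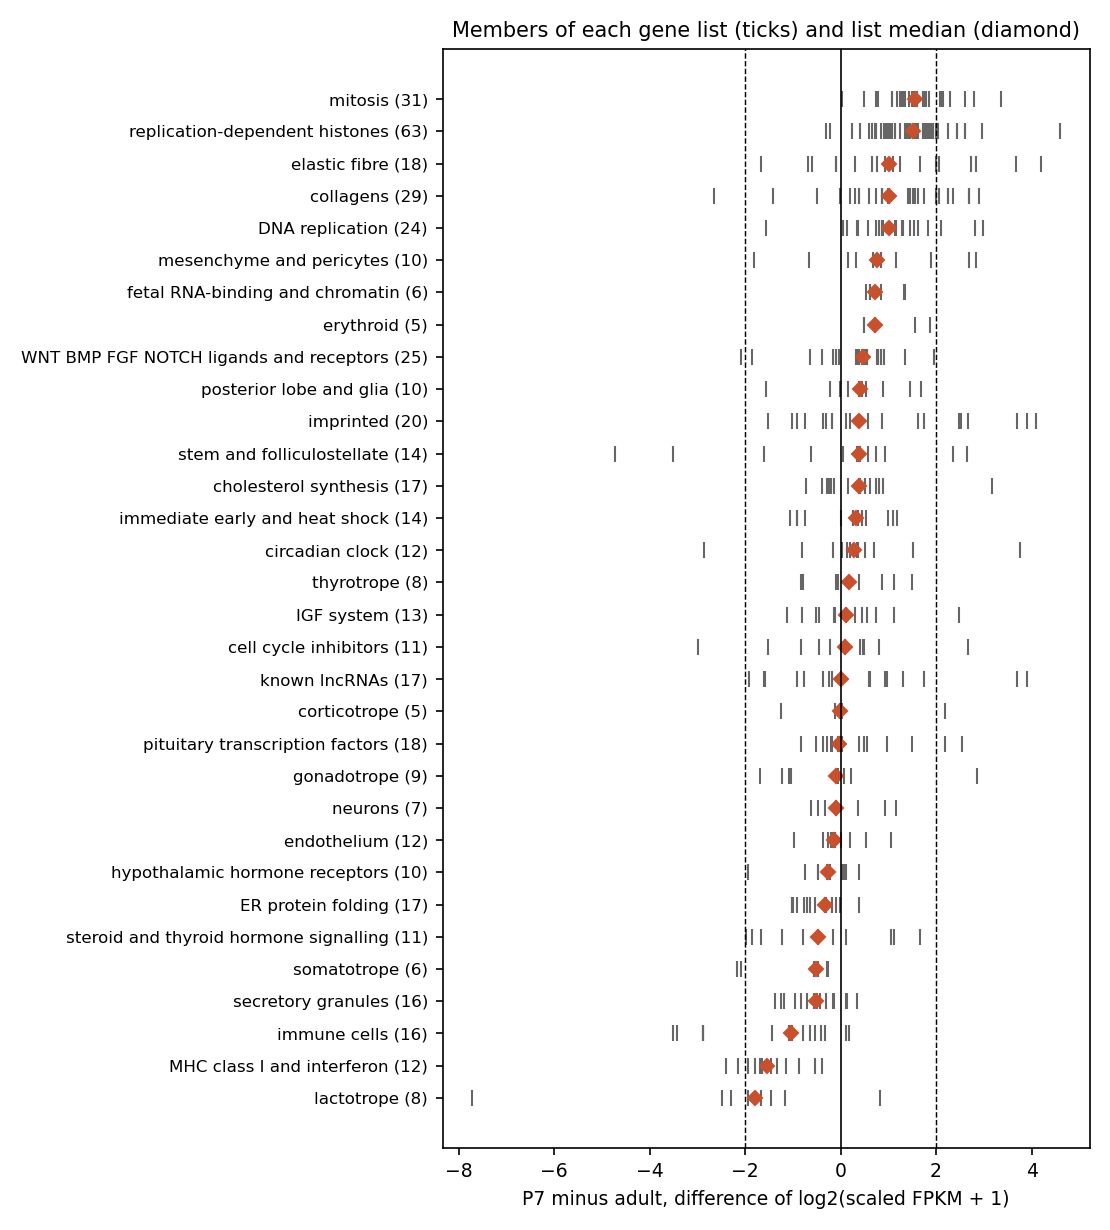
Difference between P7 and adult whole glands in log2(scaled FPKM + 1) for the members of each gene list with at least 5 genes compared, P7 minus adult; the number compared follows each name. Each tick is 1 gene, diamonds are list medians and dashed lines mark 4-fold. Mitosis and histone genes lie at the top with medians of 1.55 and 1.52, and lactotrope genes at the bottom with a median of -1.80.

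Genes of dividing cells were higher at P7. All 31 mitosis genes compared had a higher value at P7; 27 were at least 2-fold higher, 8 at least 4-fold higher and 0 lower, and the median was 1.55. With assembled transcripts the median was the same and 30 of the 31 had a higher value. Mki67, which encodes the proliferation antigen Ki-67 (chromosome 7, 135291513 to 135318286, mm39), stood at 10.1 at P7, with bounds of 9.71 and 10.5, and at 1.27 in the adult gland, with bounds of 1.16 and 1.39, 4.88-fold higher. Top2a, a DNA topoisomerase that untangles chromosomes (chromosome 11, 98883773 to 98915037), stood at 10.5 at P7 and 0.902 in the adult gland, 6.06-fold higher. With assembled transcripts Top2a stood at 10.5 and 2.07, just under 4-fold. Mki67 had none to add, but by its highest transcript alone its log2 difference was 1.89, also under 4-fold.

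The other mitosis genes called act in the spindle, cyclin-dependent kinase activity and cytokinesis. Tpx2, a spindle assembly factor, stood at 5.91 at P7 and 0.57 in the adult gland. Ccna2, cyclin A2, stood at 6.76 at P7 and 0.775 in the adult gland, and Ccnb2, cyclin B2, at 3.80 and 0.106. Kif20a and Prc1, of the central spindle, stood at 5.92 and 9.30 at P7 and are listed at 0 in the adult gland. Mki67, Ccna2, Tpx2 and Kif20a stayed past 4-fold with assembled transcripts, and Top2a, Ccnb2, Kif23 and Prc1 came below it. Racgap1 was the member nearest to level, at 9.47 at P7 and 9.18 in the adult gland, and its direction turned with assembled transcripts, at 9.47 and 15.1.

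The promoters of Top2a and Mki67 are shown because mitosis genes are known for CCAAT boxes and for the cell cycle homology region. Both windows are RefSeq sequences on GRCm38.p6 on the minus strand, at chr11:99024140-99024439 and chr7:135716330-135716629. Capitals mark CCAAT on either strand, 6 times for Top2a, from -227 to -58, and 3 times for Mki67, from -188 to -141.
Top2a promoter: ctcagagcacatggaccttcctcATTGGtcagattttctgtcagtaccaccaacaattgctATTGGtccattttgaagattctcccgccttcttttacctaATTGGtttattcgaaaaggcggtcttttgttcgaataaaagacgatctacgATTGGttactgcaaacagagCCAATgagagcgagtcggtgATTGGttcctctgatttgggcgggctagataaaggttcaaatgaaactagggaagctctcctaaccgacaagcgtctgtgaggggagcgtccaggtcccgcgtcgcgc
Mki67 promoter: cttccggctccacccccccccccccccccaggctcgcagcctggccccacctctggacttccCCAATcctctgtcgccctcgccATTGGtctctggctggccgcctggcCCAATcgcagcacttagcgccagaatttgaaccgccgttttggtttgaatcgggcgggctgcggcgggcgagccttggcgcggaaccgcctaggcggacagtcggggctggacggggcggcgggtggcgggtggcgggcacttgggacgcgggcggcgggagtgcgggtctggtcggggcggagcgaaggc
Of 28 promoters of 26 mitosis genes, 85.7% held CCAAT and 57.1% held it 2 or more times, against 37.4% and 11.7% of all 32851 promoters. The cell cycle homology region, searched as TTTGAA on both strands, was in 75% of mitosis promoters and 17.9% of all promoters. Of 57 promoters of 56 histone genes, 86% held CCAAT and 43.9% held TTTGAA. The shares for the 25 collagen promoters were 32% and 24%. Matches of the 2 motifs were counted separately. A match to such short letters is a description of the window and not a site.

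DNA replication genes were higher at P7 by less. Of 24 compared, 12 were at least 2-fold higher and 1 lower, and 3 were at least 4-fold higher and 0 lower, with a median of 1.02, or 0.81 with assembled transcripts. Rrm2, a ribonucleotide reductase subunit, stood at 4.27 at P7 and 0.217 in the adult gland. Lig1, a DNA ligase, and Rrm1, the partner of Rrm2, stood at 6.91 and 6.09 at P7 and are listed at 0 in the adult gland. With assembled transcripts none of these 3 stayed at 4-fold. Mcm2, a subunit of the replicative helicase, stood at 7.16 at P7 and 1.28 in the adult gland, or 3.08 there with assembled transcripts, and Pcna, the sliding clamp, at 22.8 and 8.78. Ccne2, cyclin E2, is listed at 0 at P7 and stood at 1.94 in the adult gland. Cell cycle inhibitors, by contrast, had a median of 0.09 over 11 genes, with 1 higher and 1 lower. Cdkn1c, an imprinted inhibitor of cyclin-dependent kinases, was the higher one, at 32.2 at P7 and 4.18 in the adult gland, 6.41-fold. Cdkn2d is listed at 0 at P7 and stood at 6.87 in the adult gland, but at 11.4 and 6.87 with assembled transcripts.

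Histone genes of the replication-dependent clusters, which are transcribed in S phase, were higher at P7 almost throughout. Of 63 compared, 61 had a higher value at P7, 49 were at least 2-fold higher, 9 at least 4-fold higher and 0 lower, and the median was 1.52. The summed level was 1636 at P7 and 632 in the adult gland. H2bc6, a histone H2B gene (chromosome 13, 23767653 to 23805107), stood at 34.6 at P7 and 3.54 in the adult gland, 7.85-fold higher. H1f5 and H1f1, linker histones, stood at 9.91 and 11.05 at P7 and 0.788 and 0.987 in the adult gland. H3c2, a histone H3 gene, stood at 40.9 at P7 and 6.69 in the adult gland. The exceptions were H2ac18, at 39.9 at P7 and 46.9 in the adult gland, and H2bc21, at 3.09 and 4.03. Of the 9 called, 7 stayed past 4-fold with assembled transcripts. These genes are near-identical copies that share reads, so the split among them is uncertain and the genes are not independent.

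Genes of the extracellular matrix were higher at P7. Elastin gave the largest higher difference of any gene above 0 in both libraries: Eln (chromosome 5, 134731449 to 134776300, mm39) stood at 34.6 at P7, with bounds of 33.3 and 35.9, and at 0.936 in the adult gland, with bounds of 0.783 and 1.09, 18.4-fold higher. With assembled transcripts Eln stood at 34.6 and 2.70, 9.62-fold higher. Of 18 elastic fibre genes 5 were at least 4-fold higher, 9 at least 2-fold higher and 0 at least 4-fold lower, with a median of 1.02. With assembled transcripts the median was 0.84. Fbln2 then came under 4-fold, at a log2 difference of 1.75, and Fbln1 under 2-fold, at 0.19.

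The microfibril genes divided by member. Mfap2, a microfibril protein, stood at 29.3 at P7 and 3.24 in the adult gland, 7.15-fold higher, or 4.19-fold with assembled transcripts. Fbn2, the fibrillin of growing tissue, stood at 7.86 at P7 and 0.324 in the adult gland, 6.69-fold higher, or 4.23-fold with assembled transcripts, while Fbn1, the fibrillin of mature fibres, stood at 7.31 and 2.53. Efemp2, which helps to join elastin to its crosslinking enzyme, stood at 11.7 at P7 and is listed at 0 in the adult gland. In Tshbcre cells Efemp2 had a lower value at P7, at 5.41 against 9.52 in adults. Lox, a lysyl oxidase that crosslinks elastin and collagen, was at 7.22 at P7 and 1.61 in the adult gland. The opposite order was seen for Loxl1, at 9.79 at P7 and 15.2 in the adult gland, and for Ltbp4, which binds latent TGF-beta, at 4.18 and 15.4, or 10.1 and 15.4 with assembled transcripts. Of the 18 genes 13 had a higher value at P7 and 5 a lower one.

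Of 29 collagen genes, 7 were at least 4-fold higher, 16 at least 2-fold higher and 1 at least 4-fold lower, with a median of 1.02, or 1.13 with assembled transcripts. Col3a1, the fibrillar collagen of soft tissue, stood at 52.6 at P7 and 7.32 in the adult gland, 6.44-fold higher. Col1a1 stood at 57.0 at P7 and 10.3 in the adult gland, while Col1a2, the other chain of type I collagen, stood at 43.4 and 32.7, within 2-fold. Col26a1 stood at 10.1 at P7 and 0.715 in the adult gland, though by its highest transcript alone its log2 difference was 1.63, under 4-fold. The basement membrane chains Col4a1 and Col4a2 stood at 43.1 and 31.0 at P7 and 20.8 and 14.98 in the adult gland, each about 2-fold higher at P7. Col18a1 was the one called lower, listed at 0 at P7 and at 5.30 in the adult gland, but at 14.9 and 5.30 with assembled transcripts, so its direction turned. With assembled transcripts Col26a1, Col3a1, Col1a1 and Col6a2 stayed past 4-fold.

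Mesenchyme and pericyte genes gave 2 higher and 0 lower of 10, with a median of 0.77. Acta2, smooth muscle actin, stood at 24.2 at P7 and 2.53 in the adult gland, 7.13-fold higher. Dcn, the proteoglycan decorin, stood at 52.9 at P7 and 7.36 in the adult gland, but at 52.9 and 52.8 with assembled transcripts, which removed the difference. Pdgfra and Pdgfrb, receptors that mark fibroblasts and pericytes, stood at 6.55 and 8.28 at P7 and 3.17 and 6.44 in the adult gland. Apod, an apolipoprotein made by fibroblasts, was lower at P7, at 4.64 against 18.8 in the adult gland. With assembled transcripts the list median was 0.50. The list's summed level was 175 at P7 and 111 in the adult gland without assembled transcripts. These sums include Dcn at 52.9 and 7.36, the difference that assembled transcripts removed. The part of the list in the matrix differences was not tested. Endothelial genes were level by comparison, with a median of -0.13. At 4-fold 0 of 12 were apart, where the shares over all genes were 3.34% higher and 3.3% lower. Plvap, of fenestrated endothelium, stood at 31.7 at P7 and 63.1 in the adult gland, and Cdh5, the endothelial cadherin, at 14.4 and 9.65.

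**Figure D3:**
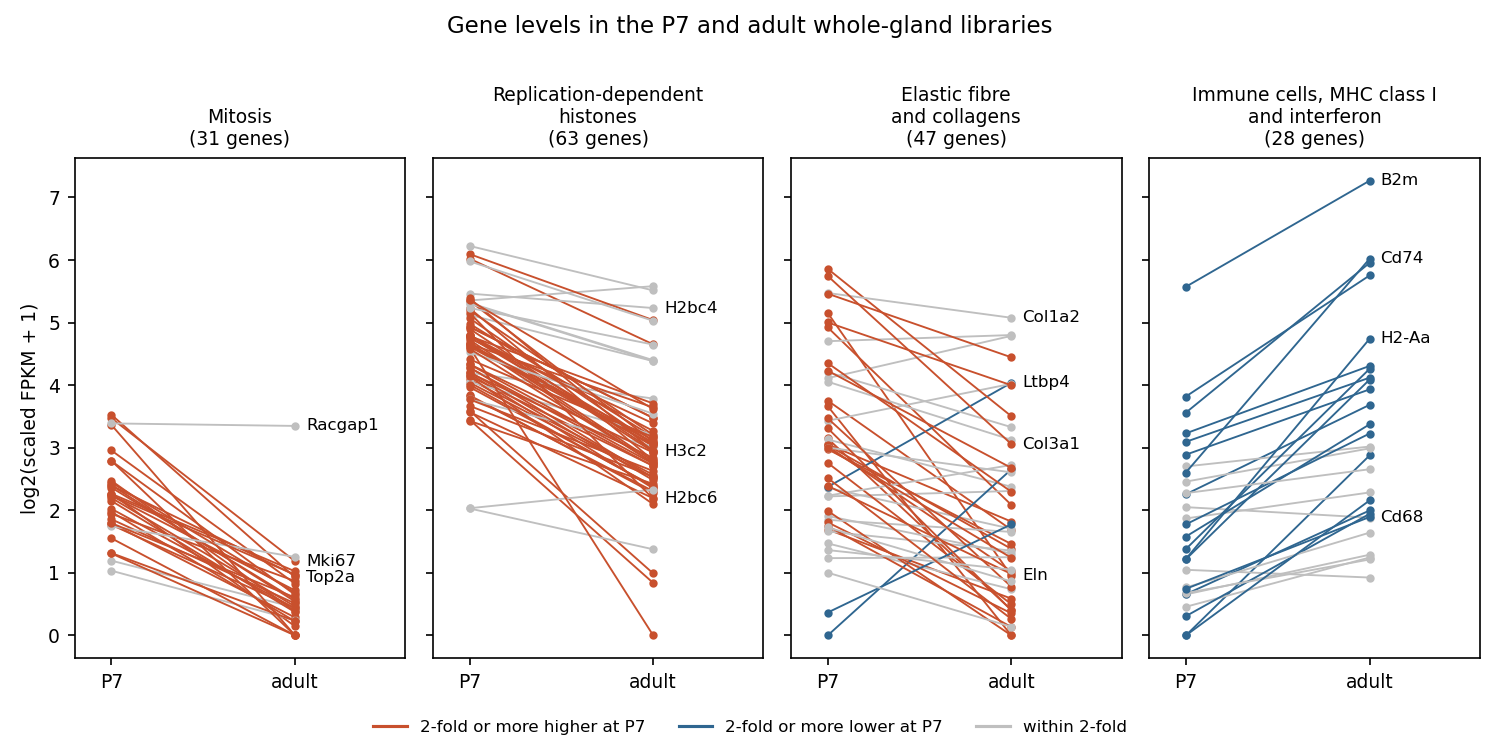
Levels at P7 (left) and in the adult gland (right) of every compared member of 4 groups of lists, as log2(scaled FPKM + 1), with 1 line per gene and 1 library per age. Orange lines are genes at least 2-fold higher at P7, blue lines at least 2-fold lower and grey lines within 2-fold. Mitosis and histone lines slope down to the adult gland, matrix lines go both ways with more of them down, and the coloured immune and MHC lines go up.

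Antigen presentation genes were lower at P7. MHC class II molecules, loaded with the help of the invariant chain Cd74, mark macrophages, dendritic cells and B cells. H2-Aa, a class II chain (chromosome 17, 34501718 to 34506797), stood at 1.33 at P7 and 25.7 in the adult gland, 11.5-fold lower. Cd74 stood at 5.08 at P7 and 63.9 in the adult gland, 10.7-fold lower. H2-Ab1 and H2-Eb1, partner chains, stood at 1.603 and 1.32 at P7 and 18.2 and 16.0 in the adult gland. All 4 kept the same values with assembled transcripts added. The H2-Aa promoter is shown because class II promoters share a CCAAT element, the Y box. The window, from RefSeq on GRCm38.p6, is chr17:34287774-34288073 on the minus strand, and capitals mark CCAAT on either strand, found once at -48.
H2-Aa promoter: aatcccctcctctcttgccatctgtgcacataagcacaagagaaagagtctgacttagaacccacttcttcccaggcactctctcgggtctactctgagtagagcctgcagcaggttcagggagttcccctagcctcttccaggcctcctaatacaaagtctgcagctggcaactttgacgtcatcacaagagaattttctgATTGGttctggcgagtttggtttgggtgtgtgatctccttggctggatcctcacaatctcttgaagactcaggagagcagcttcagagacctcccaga

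Of 16 immune genes 5 were at least 4-fold lower, 9 at least 2-fold lower and 0 at least 4-fold higher, with a median of -1.03. Cd74 and the 3 class II chains made up 4 of the 5 calls. Of the other 12 genes 1 was at least 4-fold lower and 5 at least 2-fold lower, with a median of -0.71, and with assembled transcripts 0 were 4-fold lower. C1qa, C1qb and C1qc, the chains of complement C1q, were each about 2-fold lower, with C1qb at 8.38 at P7 and 18.8 in the adult gland. Cd68, a lysosomal macrophage marker, stood at 3.14 at P7 and 2.69 in the adult gland, or 5.26 and 5.56 with assembled transcripts, and Tyrobp, a myeloid adaptor, at 5.50 and 7.10. Csf1r, the receptor for macrophage colony-stimulating factor, is listed at 0 at P7 and stood at 6.34 in the adult gland, but at 4.01 and 6.34 with assembled transcripts. The summed level was 43.9 at P7 and 91.9 in the adult gland over these 12 genes, and 9.34 and 124 over Cd74 and the class II chains.

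All 12 MHC class I and interferon genes had lower values at P7, 9 of them at least 2-fold and 2 at least 4-fold, with a median of -1.54, or -0.95 with assembled transcripts. B2m, the light chain of class I molecules, stood at 46.6 at P7 and 153 in the adult gland. H2-K1, a class I heavy chain, stood at 10.8 at P7 and 61.0 in the adult gland, and at 21.1 and 61.0 with assembled transcripts, under 4-fold. Irf7 is listed at 0 at P7 and stood at 3.46 in the adult gland, and at 3.51 and 3.46 with assembled transcripts. Tap1 stood at 0.238 at P7 and 2.84 in the adult gland, and at 3.21 and 2.84 with assembled transcripts. Both Irf7 and Tap1 thus no longer had a lower value at P7 with assembled transcripts.

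Among the other genes named by the rule, Ecel1, which encodes a membrane metallopeptidase, stood at 0.93 at P7 and 28.5 in the adult gland, 15.3-fold lower. Chrnb3, a nicotinic receptor subunit, stood at 0.689 at P7 and 11.5 in the adult gland, and Myoc, which encodes myocilin, at 0.445 and 9.95. Ceacam10 stood at 0.0848 at P7 and 6.37 in the adult gland. Gm52666 had wide bounds at P7, from 0 to 7.55 around 2.77, against 32.7 in the adult gland. Cartpt, the CART neuropeptide precursor, stood at 7.75 at P7 and 0.545 in the adult gland, 5.66-fold higher, though by its highest transcript alone its log2 difference was 1.85, under 4-fold. The remaining 16 higher genes and 11 lower genes that met the criteria were 4.03-fold to 5.57-fold higher and 4.05-fold to 6.11-fold lower.

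Imprinted genes, of which several are fetal growth regulators, gave 6 higher and 0 lower of 20, with a median of 0.39. H19, a maternally expressed lncRNA (chromosome 7, 142129267 to 142131883, mm39), stood at 18.2 at P7, with bounds of 17.2 and 19.2, and at 0.273 in the adult gland, with bounds of 0.174 and 0.372, 15.1-fold higher. Igf2, the paternally expressed growth factor next to it, stood at 13.3 at P7 and 1.57 in the adult gland, and at 24.8 and 1.57 with assembled transcripts. With Cdkn1c these 2 genes kept 4-fold differences under both measures. The other 3 calls were at 0 in the adult gland. Snrpn stood at 16.0 at P7, while Snurf, which shares its transcript, is listed only in the adult table, at 25.7. Zim1 stood at 4.76 at P7, and at 10.8 against 7.04 in the adult gland with assembled transcripts. Mirg stood at 11.9 at P7, but at 20.5 against 42.6 with assembled transcripts.

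Other imprinted genes were level or lower at P7. Gnas, which encodes the stimulatory G protein subunit, stood at 2162 at P7 and 1883 in the adult gland. Dlk1, a NOTCH-family membrane protein, stood at 182.0 at P7 and 522 in the adult gland. Meg3, the lncRNA of the same cluster, stood at 427 at P7 and 127 in the adult gland, but at 427 and 1622 with assembled transcripts, so no direction can be given for it. In the IGF system 1 of 13 genes was higher, Igf2, and the median was 0.12. Igfbp3 stood at 14.99 at P7 and 33.6 in the adult gland, and Igfbp4 at 51.7 and 23.3.

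As a class, lncRNAs leaned lower at P7 by a small amount. Of 607 lncRNA genes compared, 17 were at least 4-fold higher (2.8%) and 24 lower (3.95%), while 449 had a lower value at P7 and the median was -0.43. Protein-coding genes had a median of 0.02. The lean was also seen among genes of like level: between 2 and 5 scaled FPKM in the higher library, and above 0 in both, the median was -0.41 over 157 lncRNAs and 0.04 over 3358 protein-coding genes. At 20 or more it was -0.22 over 14 lncRNAs. With assembled transcripts the lncRNA median was -0.41, and the part of the unequal transcript assembly in it was not tested. In the Tshbcre pair the median of the same 607 lncRNA genes was 0, with 79 at least 2-fold higher at P7 and 50 lower. Some of them, such as Snhg12, are listed at 0 in both Tshbcre libraries, which gives a difference of 0.

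Individual lncRNAs carried few firm differences. H19 was the only lncRNA higher by the naming rule, and LOC108168764 and Gm29932 were the 2 lower. LOC108168764 stood at 0.194 at P7 and 4.27 in the adult gland, and Gm29932 at 0.217 and 4.13. Malat1, an abundant nuclear lncRNA, stood at 585 at P7 and 997 in the adult gland, and Neat1, the scaffold of paraspeckles, at 3.55 and 12.9. Gas5, a snoRNA host, stood at 21.6 at P7 and 66.7 in the adult gland. Of 17 known lncRNAs 2 were at least 4-fold higher and 0 lower, with a median of 0.01, or -0.62 with assembled transcripts.

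The lists left gave few or no calls. Over all genes compared 3.34% were at least 4-fold higher and 3.3% lower, so few or no calls do not set lists this short apart. In each of the following no member was 4-fold apart without assembled transcripts: ER protein folding (17 genes, median -0.33), immediate early and heat shock (14, 0.32), steroid and thyroid hormone signalling (11, -0.47), posterior lobe and glia (10, 0.42), neurons (7, -0.11), fetal RNA-binding and chromatin (6, 0.73), erythroid (5, 0.72), cartilage and bone (3, 0.86) and skeletal muscle (2, 0.57). Dnajb1, of the heat shock list, stood at 15.2 at P7 and 26.2 in the adult gland. With assembled transcripts it stood at 22.2 and 135.8, 5.89-fold lower at P7. Vim, an intermediate filament of glia and mesenchyme, stood at 31.4 at P7 and 9.04 in the adult gland. Hbb-bs, an adult beta globin, stood at 636 at P7 and 173 in the adult gland, but at 636 and 1361 with assembled transcripts. Among cholesterol synthesis genes 1 of 17 was higher, Fdft1, at 7.97 at P7 and listed at 0 in the adult gland, with a list median of 0.38. Circadian genes gave 1 higher and 1 lower of 12, with a median of 0.27, or -0.15 with assembled transcripts. The higher one, Dbp, stood at 12.6 at P7 and is listed at 0 in the adult gland, and the lower one, Arntl, is listed at 0 at P7 and stood at 6.27 in the adult gland, but at 6.197 and 17.9 with assembled transcripts, under 4-fold. Of 25 genes of WNT, BMP, FGF and NOTCH signalling 1 was lower, Wnt10a, and the median was 0.47. Greb1, an oestrogen-induced gene of the steroid list, stood at 0.073 at P7 and 2.89 in the adult gland, a difference of -1.86, or -2.89 with assembled transcripts.

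The same age difference was then read in the Tshbcre libraries, which share no library with the whole glands. Of the 23 genes lower at P7 by the naming criteria, 15 were also at least 2-fold lower in P7 than in adult Tshbcre cells and 0 were 2-fold higher. Of the 28 higher genes, 12 were at least 2-fold higher in P7 Tshbcre cells and 1 was 2-fold lower, and 10 stood under 2 scaled FPKM in both Tshbcre libraries. In that pair 9.31% of 13218 genes were at least 2-fold higher at P7 and 12.5% lower. Across 9061 protein-coding genes the 2 sets of differences had a Pearson r of 0.29 and a Spearman rho of 0.25, given as a description over genes that share libraries.

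The members behaved by group. Prl stood at 21.7 in P7 Tshbcre cells and 6546 in adult Tshbcre cells. Cyp2f2 stood at 0.368 and 33.2, and Ecel1 at 2.08 and 48.9, in the same 2 libraries. All 3 were more than 4-fold lower at P7 in that pair too. H2-Aa stood at 0.551 in P7 Tshbcre cells and 6.81 in adult ones, and Cd74 at 0.575 and 18.1. Immune genes were at least 2-fold lower at P7 in 13 of 16 cases there, with a median of -2.12. What share of the sorted libraries came from other cells was not tested.

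Most cell cycle genes also had higher values in P7 than in adult Tshbcre cells, 31 of 31 mitosis genes and 56 of 63 histone genes. In the mitosis list 16 were at least 2-fold higher and 0 lower, with a median of 1.001, and in the histone list 33 were higher and 1 lower, with a median of 1.02. Mki67 stood at 4.96 in P7 Tshbcre cells and is listed at 0 in adult ones. H2bc6 stood at 24.6 in P7 Tshbcre cells and is listed at 0 in adult ones. Both zeros are given without assembled transcripts. H1f2, H2bc3, H2bc7 and H2bc8 are also listed at 0 in adult Tshbcre cells, whereas H2bc11 and H2bc15 stood at 6.61 and 8.99. The split of reads among histone copies is thus uncertain in this pair too. Most matrix genes did not follow: 0 of 29 collagen genes were 2-fold higher in P7 Tshbcre cells and the median was -0.12. Of 18 elastic fibre genes 1 was at least 2-fold higher there and 2 lower, with a median of -0.33. The higher one, Mfap2, stood at 6.43 in P7 Tshbcre cells and 1.52 in adult ones. Col3a1 stood at 1.39 in P7 Tshbcre cells and 1.02 in adult ones, Acta2 at 1.10 and 1.28, and Eln at 1.43 and 0.376. H19 was at 2.05 in P7 Tshbcre cells and 0.174 in adult ones.

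**Figure D4:**
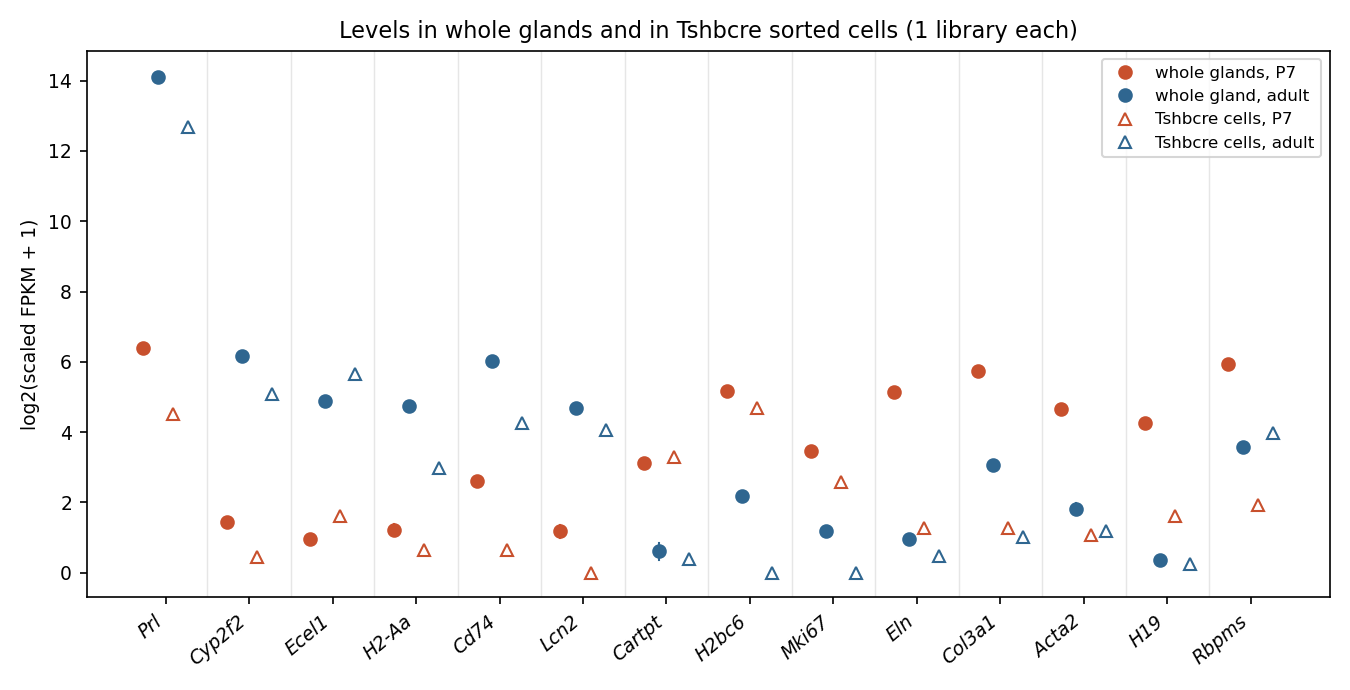
Levels of 14 genes in whole glands (filled circles) and Tshbcre sorted cells (open triangles), at P7 (orange) and in adults (blue), as log2(scaled FPKM + 1); each symbol is 1 library, and vertical lines on the circles, mostly shorter than the symbol, are the bounds from read counting. Prl, Cyp2f2, Ecel1, H2-Aa, Cd74 and Lcn2 are lower at P7 in both pairs, whereas Eln, Col3a1 and Acta2 are highest in the P7 whole glands.

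**Figure D5:**
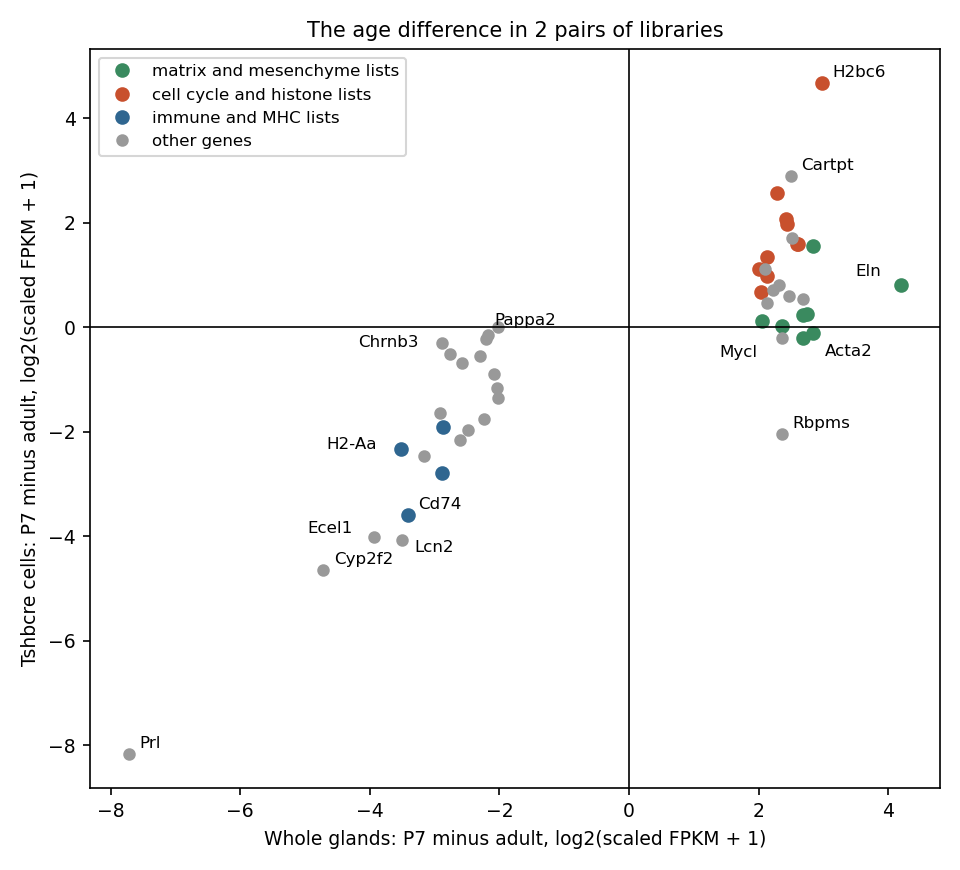
Difference between P7 and adult in whole glands (horizontal axis) and in Tshbcre cells (vertical axis), P7 minus adult in log2(scaled FPKM + 1), for the 51 protein-coding genes that met the naming criteria, coloured by gene list. Immune and MHC genes lie low on both axes, and most cell cycle and histone genes high on both, with H2bc18 at 0.67 on the vertical axis. Matrix genes lie near 0 on the vertical axis except Mfap2 and Eln, and Rbpms is high in whole glands and low in Tshbcre cells.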

How the data were processed

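Whole pituitary at P7 (8 pooled glands) and adult whole pituitary (1 gland) were each sequenced as 1 library. Per the labels' protocols, glands were dispersed with collagenase, cells were sorted, and ribosomal RNA was depleted from 250 ng of RNA; no source used here says whether nontransgenic glands were sorted too. The authors deposited isoform tables with FPKM, its bounds and a coverage signal; per the submitters' processing notes, the tools were FastQC, Bowtie2 and Cufflinks, with mm39 as the build. Within each deposited table coverage was proportional to FPKM, and the ratio of both gave the relative depth. No source used here gives read numbers or the use of strand, so overlapping and antisense genes cannot be told apart.

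A gene's value was the sum of FPKM over rows of its name. Libraries were divided by median-of-ratios factors over the 5808 genes that reached 1 FPKM in each of the 6 libraries, 1.42 for P7 and 1.10 for adult. Differences used a pseudocount of 1, a fold of 4 and a minimum of 1 in the higher library. Genes with a failed estimate (18) were left out. Gene bounds combine transcript half-widths in quadrature. Biotypes came from RefSeq and GENCODE annotation of GRCm38, used for names only, with coordinates from the files. Assembled unnamed transcripts of 200 nt or more were added where their locus held 1 named gene.

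Named genes were the 5 markers Prl, Mki67, Top2a, Eln and H19, the 12 largest differences each way among protein-coding genes meeting the criteria given with the scatter plot, up to 6 lncRNAs each way by the same criteria at a level of 1, and up to 4 members of each list by difference, with the highest members. The members, the 35 lists and the rules were chosen with earlier results of these data known. The calling procedure was run on simulated data, drawn as counting noise around adult genes at 1 FPKM or more with known changes. The simulation held no spread between animals and no assignment of reads among transcripts. It therefore cannot speak to the calls that rest on a gene listed at 0. With 1 library per group, no test was run. Alternatives covered scaling, pseudocount, level, zeros, gene value, bounds and fold. Python 3 with pandas and numpy was used.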

Additional observations from a re-analysis of the deposited data

Results flagged for a closer look

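In both pairs of libraries 17 genes were at least 4-fold apart between P7 and adult with values above 0 in all 4 libraries, 13 of them in the same direction. The other 4 went in opposite directions in whole glands and Tshbcre cells, and with 1 library per group the difference was not tested. Rbpms was higher at P7 in whole glands by 2.36 on the log2 scale, at 60.5 at P7 and 10.98 in the adult gland, and lower at P7 in Tshbcre cells, at 2.80 at P7 and 14.6 in adults. The lncRNA LOC108168764 differed by -2.14 in whole glands and stood at 10.6 in P7 Tshbcre cells and 0.562 in adult ones. The snRNA Gm25101 differed by 3.22 in whole glands, at 39.8 at P7 and 3.39 in the adult gland, and stood at 1.76 and 70.3 in P7 and adult Tshbcre cells. The snoRNA Gm23709 differed by -2.20 in whole glands, at 6.09 at P7 and 31.5 in the adult gland, and stood at 152 and 3.003 in P7 and adult Tshbcre cells.

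Outside the autosomes, Xist stood at 17.0 scaled FPKM in the P7 whole glands, against 0.0599 in the adult whole gland, and at 62.6 in P7 Tshbcre cells, against 0.106 in adult ones. Both P7 pools thus carried the female marker, and both adult libraries were near 0.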

How the results depend on the processing

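No paired analysis was possible because each group held 1 library. No library could be left out for the same reason. The count of genes at least 4-fold higher and lower at P7 (503 and 496) was 1031 and 1001 with a pseudocount of 0.1, 68 and 86 over genes above 0 in both libraries, 333 and 310 where the deposited bounds lay apart, 1507 and 1429 at 2-fold, 228 and 241 at 8-fold, and, chosen after seeing the data, 264 and 217 over protein-coding genes only. These counts follow from the settings themselves. Under the other settings both counts stayed within 1.5 times: 698 and 502 with FPKM as deposited, which moved the median of all genes to 0.31 and the higher share of calls to 58.2%, against 50.4%; 564 and 565 with factors from the 2 libraries; 626 and 508 at equal sums; 349 and 370 at a minimum of 5; 369 and 460 with assembled transcripts; 457 and 466 with the highest transcript; 503 and 496 with no minimum; and, added later, 504 and 497 with failed estimates kept. With assembled transcripts added, direction also turned for genes without a 4-fold call. Examples were Meg3, from 1.74 to -1.92, Hbb-bs, from 1.87 to -1.10, and Racgap1, from 0.04 to -0.62. The lncRNA Gm46178, described below, turned from -10.96 to 1.17. Of 149 named or list genes, 3 with a call reversed, to 0.66 for Cdkn2d, 1.33 for Col18a1 and -1.02 for Mirg, and 14 came under 4-fold. With the highest transcript in place of the sum 6 came under it, Mki67, Col26a1, Cartpt, Eya1, Rbpms and Col6a3, and with FPKM as deposited 2, Pappa2 and Wnt10a. No list with a median of 1 or more in size reversed under the scaling, pseudocount, zero and gene-value settings. Of the 35 list medians, 6 turned sign with FPKM as deposited, none of them over 0.33 in size, and 5 at equal sums of FPKM, namely corticotrope, gonadotrope, pituitary transcription factor, endothelium and neuron genes; ER protein folding was the other. The lncRNA median was -0.26 with FPKM as deposited, -0.47 with 2-library factors and -0.33 at equal sums. The number of fragments behind a value is not known, so no counting interval beyond the deposited bounds could be given.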

Other observations

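Small structural RNAs held more 4-fold differences than other genes, and these are values with no test. Of 397 snoRNA genes 89 were at least 4-fold higher at P7 and 100 lower, of 272 snRNA genes 23 were higher and 45 lower, and of 97 miRNA hairpin genes 39 were higher and 37 lower. tRNA genes were mostly higher, 33 of 50, with 8 lower and a median of 2.50. Only 9 of these 50 were above 0 in both libraries and 0 of the 9 were called, so every tRNA call rested on a listed 0. The same held for miRNA hairpin genes, with 21 of 97 above 0 in both libraries and 0 of the 21 called. For these classes together, 410 of 842 genes were above 0 in both libraries, and 5 and 23 of those were at least 4-fold higher and lower at P7.

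Gm42186, an lncRNA chosen after its values were seen, stood at 261 at P7 and 25.3 in the adult gland, and at 1596 and 96.4 in P7 and adult Tshbcre cells. Its bounds in whole glands overlapped, from 76.3 to 445 at P7 and from 0 to 126 in the adult gland. Gm46178, also chosen after its values were seen, is listed at 0 at P7 and stood at 1989 in the adult gland, but at 4491 at P7 against 1989 with assembled transcripts added.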
